A study of Oryza sativa Japonica Group and Oryza sativa Indica Group with 20 samples.

Results

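Callus of rice that had been moved to regeneration medium and failed to regenerate was set against the embryo from which the cultures began. The comparison held 4 of the 10 RNA libraries of the series: failed callus (TF) of the japonica cultivar Tainung 67 (TNG67) and of the indica cultivar IR64, and the embryo (T0) of each. The libraries were chosen by their stage alone, and each callus was compared with the embryo of its own cultivar. The failed calli had first been grown on N6D medium containing the synthetic auxin 2,4-D at 2.5 mg/L and then stood on REIII M2 medium holding NAA, an auxin, at 0.02 mg/L and BAP, a cytokinin, at 2 mg/L. The other 6 RNA libraries served as landmarks. They came from callus newly induced on 2,4-D (T1), callus subcultured on the same medium (T2) and callus that regenerated on the regeneration medium (TS), in both cultivars. Each stage of each cultivar had 1 library, so no value has a replicate of its own, and the labels do not say how many embryos or calli were pooled.

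A callus is a mass of dividing and largely unorganised plant cells. The embryo of a cereal seed holds large amounts of transcripts for storage, oil body and desiccation proteins, which are known to decline once the seed is wetted and cells begin to divide. A high ratio of cytokinin to auxin is the usual signal for shoots to form from callus, and calli that do not respond stay as callus or brown and die. The deposited table gave loci by identifier, without product names, and the gene table used here matched 1 of 54170 identifiers. The functions of the loci are therefore not reported, the labelled tissues could not be checked against marker genes, and loci are described by what they did across the stages. An identifier encodes the chromosome of its locus. In bulk tissue, fewer cells of a type and less RNA per cell cannot be told apart.

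Values were FPKM, fragments scaled to gene length and library size, and sequencing depth was unknown. Changes are given as differences of log2(FPKM + 1), a measure that makes the changes of scarce transcripts look smaller than they were. Tests covered the 22913 loci that reached 1 FPKM in 2 or more libraries. The IR64 embryo library had 1 locus of chromosome 12 at a round 3000000 FPKM, which was 79.1% of its sum. Without it the sum of FPKM ran from 595183 to 1063007 over the 10 libraries, and the median change of all tested loci between TF and T0 was 0 in TNG67 and -0.01 in IR64. Median-ratio scaling and quantile normalization kept these medians between -0.06 and 0.04.

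Failed callus remained far from the embryo in both cultivars. Under an effect common to the cultivars, 1631 loci were higher in TF than in T0 (7.12% of those tested) and 2562 were lower (11.2%), by limma's moderated test at an adjusted p of 0.05. Of these, 697 were at least 4-fold higher by the fitted change and 856 at least 4-fold lower. The chromosomes shared in the change: the loci called higher made up 5.91% to 8.08% of the tested loci of a chromosome, and those called lower 8.70% to 12.1%. Against T0 the same fit called 2676 loci higher and 3347 lower at T1, 1907 and 2801 at T2, and 1457 and 2098 at TS. The counts for TF lay between those for TS and T2, and all these comparisons share the T0 libraries. Within TNG67, TF was at least 4-fold above T0 at 1332 loci (5.81%) and at least 4-fold below it at 1696 (7.4%). Within IR64, it was above at 1503 loci (6.56%) and below at 1081 (4.72%). Loci at least 4-fold higher in both cultivars made up 45.4% of the TNG67 list and 40.3% of the IR64 list. For loci at least 4-fold lower, the shares were 37.5% and 58.8%.

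**Figure D1:**
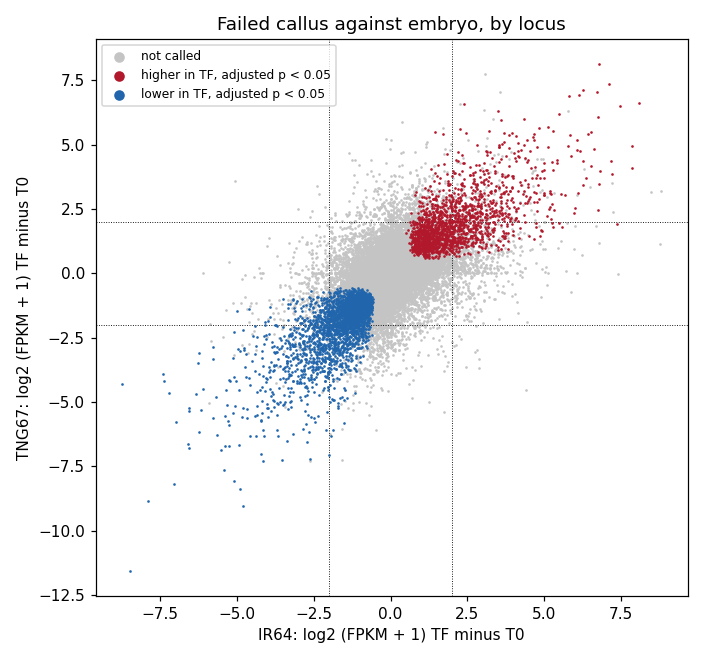
Change of each tested locus in failed callus against the embryo, TF minus T0 on log2(FPKM + 1), in TNG67 (vertical axis) and IR64 (horizontal axis). Red points are the 1631 loci called higher and blue points the 2562 called lower, grey points were not called, and dotted lines mark 4-fold.

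With single libraries the adjusted p reflects how alike the cultivars moved over all 10 libraries, on 4 residual degrees of freedom, and carries no spread between cultures. The counts of higher and lower loci fell to 127 and 139 without the TNG67 TF library, 455 and 781 without IR64 TF, 667 and 1142 without TNG67 T2, 676 and 1160 without IR64 T2, 922 and 1402 without TNG67 TS, 918 and 1407 without IR64 TS, 977 and 1682 without TNG67 T1, and 984 and 1692 without IR64 T1. Both counts rose when either T0 library was left out. They were 276 and 642 without the cultivar term. A limma fit on the 4 TF and T0 libraries alone, with 1 residual degree of freedom, called 0 loci. Its unadjusted p was under 0.05 for 6157 loci, with a lowest adjusted p of 0.0511.

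Of the loci past the test, 364 were at least 4-fold higher and 530 at least 4-fold lower in both cultivars with a mean of 10 FPKM or more in the higher stage. The locus with the largest fitted rise was LOC_Os01g52240 on chromosome 1, with failed callus levels of 543 FPKM (TNG67) and 349 FPKM (IR64), against 0.945 in the TNG67 embryo and 2.20 in the IR64 embryo. Its fitted log2 change was 7.45 (SE 0.69, limma adjusted p = 0.0053). It was already at 40.05 to 198 FPKM in the other calli of both cultivars, so TF was the highest callus in each. LOC_Os10g11500 on chromosome 10, listed at 0 in both embryos, reached 97.9 FPKM in failed callus of TNG67 and 269.7 in that of IR64. Its limma adjusted p of 0.035 was lost without the cultivar term (0.14), at a pseudocount of 5 (0.066), without the filter on low values (0.079), and without IR64 T0 (0.11), IR64 T1 (0.056), IR64 TF (0.093), TNG67 T1 (0.056) or TNG67 TF (0.19). The other TNG67 calli ranged over 2.97 to 3.19 FPKM for it, and the other IR64 calli over 5.98 to 372.

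The largest fitted fall was that of LOC_Os08g03410 on chromosome 8, with failed callus at 0.755 FPKM for TNG67 and 62.1 for IR64, against 5240.4 in the TNG67 embryo and 22354.5 in the IR64 embryo. The fitted log2 change was -10.01 (SE 0.70, limma adjusted p = 0.0041, but 0.078 without the cultivar term). LOC_Os11g37270 on chromosome 11 had 0.450 FPKM in TF of TNG67 and 23.9 in TF of IR64, against 667 and 5934.5 in the embryos of TNG67 and IR64 (fitted log2 change -8.37, SE 0.87, limma adjusted p = 0.0064). Both loci remained many-fold below the embryo in failed callus, although in each cultivar TF held the highest level among the calli.

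To ask which loci stayed at their callus level in failed callus and which went back towards the embryo, loci were taken whose T1 and T2 levels were both at least 4-fold from T0, in the same direction, in both cultivars. The TF and TS libraries had no part in that choice. There were 266 loci raised in callus and 635 lowered in callus, out of 953 raised in TNG67, 1020 raised in IR64, 1671 lowered in TNG67 and 1609 lowered in IR64. A position was then given to TF and TS on log2(FPKM + 1), with 0 at the embryo and 1 at the mean of T1 and T2 of the same cultivar. The midpoint and the limits used below are on this log scale and are not midpoints or limits in FPKM. TF and TS positions share the T0, T1 and T2 libraries of their cultivar and are given side by side, as a description with no test. The T1 and T2 levels both chose the loci and set the callus end, which favours positions below 1 for TF and TS alike.

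By their medians these loci kept a level in failed callus much nearer to that of 2,4-D-grown callus than to that of the embryo. In TNG67 the 266 raised loci had medians of 0.691 FPKM at T0, 19.6 at T1, 16.3 at T2, 11.2 at TS and 15.5 at TF. In IR64 their medians were 1.62, 29.3, 22.9, 18.2 and 16.6 FPKM in the same order. The 635 lowered loci had medians of 116, 6.92, 7.89, 11.1 and 9.47 FPKM in TNG67 and 69.4, 4.999, 5.32, 6.91 and 10.3 FPKM in IR64. Among the medians of lowered loci, IR64 TF was therefore the highest of the IR64 calli, while in TNG67 TS was the highest.

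**Figure D2:**
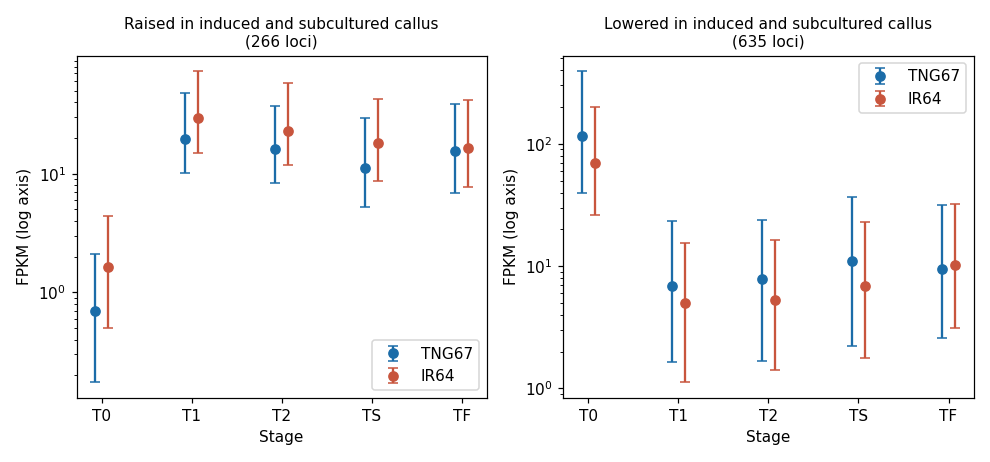
Levels in FPKM (log axis) of the 266 loci raised and the 635 loci lowered in induced and subcultured callus of both cultivars, by stage, for TNG67 (blue) and IR64 (red). Points are medians over loci and bars the quartiles over loci, not an error between libraries; at both regeneration stages the medians lie much nearer to T1 and T2 than to T0.

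The position of the raised loci had a median of 0.89 in TNG67 TF and 0.82 in TNG67 TS, and of 0.79 in IR64 TF and 0.82 in IR64 TS. For lowered loci the medians were 0.93 in TNG67 TF and 0.89 in TNG67 TS, and 0.79 in IR64 TF and 0.90 in IR64 TS. Failed callus of TNG67 thus lay at least as far from the embryo as the successful callus did by these medians, and failed callus of IR64 lay nearer to it. Past the midpoint towards the embryo were 13 of the 266 raised loci (4.89%) in TNG67 TF and 28 (10.5%) in TNG67 TS. In IR64 the numbers were 43 (16.2%) in TF and 24 (9.02%) in TS. Of the 635 lowered loci, 32 (5.04%) were past the midpoint in TNG67 TF and 17 (2.68%) in TNG67 TS, against 90 (14.2%) in IR64 TF and 5 (0.787%) in IR64 TS. With loci chosen in the other cultivar alone, where the shift in the measured cultivar can be small and positions are loose, the shares of lowered loci were 16.7% in TNG67 TF and 14.03% in TNG67 TS, and 23.2% in IR64 TF and 13.95% in IR64 TS, and those of raised loci were 17.2% in TNG67 TF and 25.7% in TNG67 TS, and 32.9% in IR64 TF and 29.0% in IR64 TS. At a pseudocount of 5 the share of raised loci in IR64 TF was 30.3%.

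**Figure D3:**
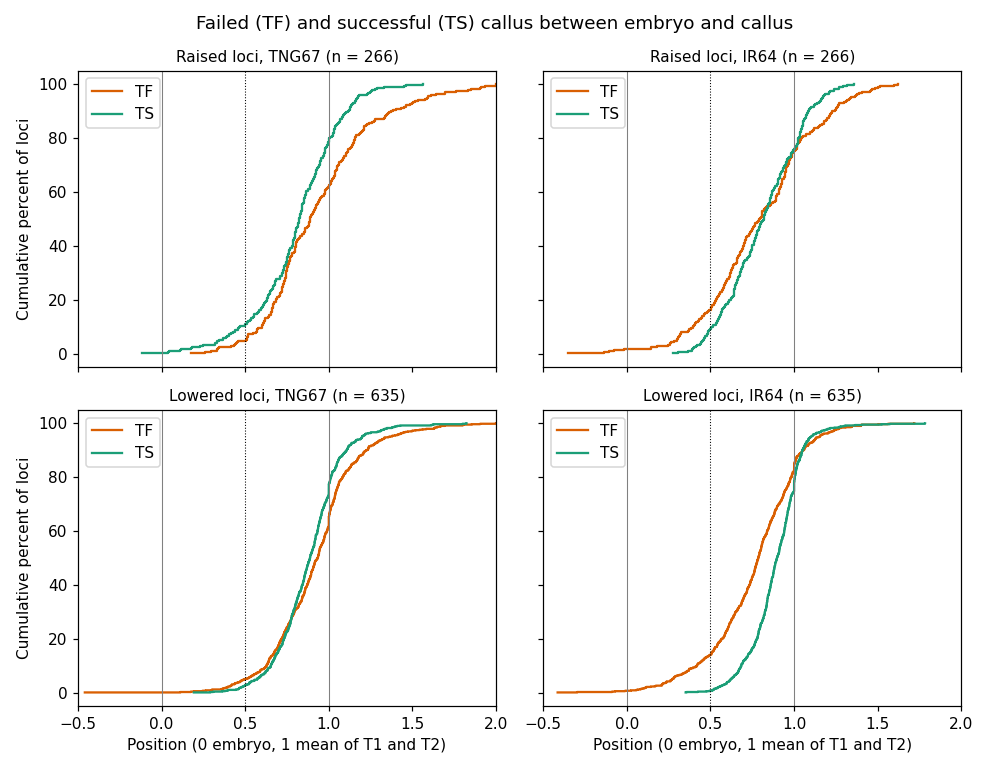
Cumulative percent of loci (vertical axis) by position in failed (TF, orange) and successful (TS, green) callus, for raised and lowered loci of each cultivar. Positions run on log2(FPKM + 1) between the embryo (0) and the mean of T1 and T2 (1). Values beyond the axis are drawn at its end and the dotted line is the midpoint. The widest gap is for lowered loci in IR64, where 14.2% of TF positions and 0.787% of TS positions lie at or below 0.5.

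Lowered loci past the midpoint in IR64 failed callus were found at all levels of abundance. Among the 212 lowered loci least abundant in the embryo, with means of 4.25 to 46.5 FPKM, 13.7% were past the midpoint in IR64 TF. Among the 211 of middle abundance the share was 15.6%, and among the 212 most abundant, with means of 182 to 10824 FPKM, it was 13.2%. In TNG67 TF the shares were 2.36%, 3.79% and 8.96% in the same order, and in TNG67 TS they were 3.30%, 2.84% and 1.89%. In IR64 TS they were 0%, 0.474% and 1.89%. TF was the highest of the 4 calli at 395 of the 635 lowered loci in IR64 (62.2%) and at 215 in TNG67 (33.9%). Over all tested loci TF was the highest callus at 28.3% in IR64 and 28.8% in TNG67. TS was the highest callus at 25.04% of the lowered loci in IR64 and 40.9% in TNG67, where its shares over all tested loci were 28.1% and 29.3%. Of the lowered loci, then, the callus most often highest was TF in IR64 and TS in TNG67. At the raised loci TF was the lowest of the 4 calli for 49.6% in IR64 and 39.1% in TNG67, where the shares over all tested loci were 36.3% and 33.5%. TS was the lowest callus at 32.3% of the raised loci in IR64 and 41.4% in TNG67, against 16.3% and 17.0% over all tested loci. Both regeneration stages were thus lowest more often at raised loci than over all loci. The choice of loci with high T1 and T2 levels favours TF or TS as the lowest callus. In the same way, low T1 and T2 levels favour TF or TS as the highest callus at lowered loci. The shares over all tested loci carry no such choice, so an excess over them is no support.

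Loci were called callus-like where the position of TF was at least 0.75 in both cultivars. This held for 116 of the 266 raised loci (43.6%) and for 299 of the 635 lowered loci (47.1%). By the same limit TS was callus-like in both cultivars at 113 raised (42.5%) and 435 lowered loci (68.5%). The 116 raised loci had median levels of 27.9 FPKM in TF of TNG67 and 33.4 in TF of IR64, against 0.550 in the TNG67 embryo and 1.36 in the IR64 embryo. The 299 lowered loci had medians of 6.01 FPKM in TF of TNG67 and 5.46 in TF of IR64, against 98.2 and 56.0 in the embryos. At 6 raised loci TF lay past the callus level in both cultivars, with positions of at least 1.25, and at 0 lowered loci did it do so.

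Among callus-like raised loci the widest shift between embryo and callus was at LOC_Os06g48250 on chromosome 6. In TNG67 it was listed at 0 at T0 and had 69.8 FPKM at T1, 42.7 at T2, 34.6 at TS and 137 at TF. In IR64 it had 0.321, 101, 125, 113 and 101 FPKM in that order. The embryos and calli did not overlap, and TF against T0 gave a fitted log2 change of 6.69 (SE 0.52, limma adjusted p = 0.0046). The choice of callus-like loci by T0, T1, T2 and TF favours both results, so they are no support. The same holds for the tests of the other named callus-like loci. LOC_Os05g15770 on chromosome 5 followed, with 0.146 FPKM at T0, 69.3 at T1, 32.9 at T2, 8.16 at TS and 185 at TF in TNG67. In IR64 it had 0.566, 68.3, 190.3, 316 and 217 FPKM. In TNG67 its TF level was the highest and its TS level the lowest of the calli, whereas in IR64 TS was the highest. Its fitted log2 change of 7.23 (SE 1.23, limma adjusted p = 0.016) was no longer called without the cultivar term (0.052), without IR64 TF (0.053) or without TNG67 TF (0.11).

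Among callus-like lowered loci the widest shift was again at LOC_Os08g03410, whose calli were listed at 0 at T1, T2 and TS in TNG67 and stood at 15.4, 16.1 and 28.9 FPKM in IR64. LOC_Os02g56680 on chromosome 2 had 2191 FPKM at T0, 1.99 at T1, 6.65 at T2, 10.8 at TS and 19.1 at TF in TNG67. In IR64 it had 2173, 12.1, 3.61, 12.3 and 22.0 FPKM. TF was the highest callus in both cultivars and still lay far below the embryo, with a fitted log2 change of -6.67 (SE 0.62, limma adjusted p = 0.0054).

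Loci were called returned where TF lay at or past the midpoint towards the embryo in both cultivars. There were 8 such raised loci (3.01% of the set), 61.5% of the 13 in TNG67 and 18.6% of the 43 in IR64. Over the whole raised set the shares were 4.89% in TNG67 and 16.2% in IR64. Of the lowered loci 15 had returned (2.36% of the set), 46.9% of the 32 in TNG67 and 16.7% of the 90 in IR64. Over the whole lowered set the shares were 5.04% in TNG67 and 14.2% in IR64. TS was past the midpoint in both cultivars at 3 raised and 0 lowered loci. The other 142 raised and 321 lowered loci had neither stayed nor returned in both cultivars. The 8 raised loci lay on 4 chromosomes and the 15 lowered loci on 9. Among the lowered ones, 2 pairs had identifiers within 50 of each other on a chromosome, which are close neighbours in this numbering.

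The 15 lowered loci that returned had medians of 48.3 FPKM in TF of TNG67 and 94.6 in TF of IR64, against 109 and 196 in the embryos of TNG67 and IR64. In the other calli their medians were 6.88, 11.6 and 16.0 FPKM at T1, T2 and TS in TNG67 and 25.4, 28.2 and 45.8 FPKM in IR64. TF was the highest of the 4 calli at all 15 loci in both cultivars, an order that the choice by TF, T1 and T2 favours. LOC_Os10g40480 on chromosome 10 had 160 FPKM at T0, 5.74 at T1, 1.58 at T2, 2.09 at TS and 27.4 at TF in TNG67, and 603, 45.4, 53.0, 92.9 and 422 FPKM in IR64. Its TF level came close to the embryo in IR64 and stayed between embryo and callus in TNG67. LOC_Os11g33270 on chromosome 11 had 73.8, 5.21, 5.21, 12.2 and 34.2 FPKM in TNG67 and 165, 8.83, 13.6, 7.91 and 89.7 FPKM in IR64. At both loci TF exceeded every other callus of its cultivar. Neither passed limma's test for TF against T0, with fitted log2 changes of -1.51 (SE 0.71, adjusted p = 0.18) and -0.98 (SE 0.48, adjusted p = 0.19). A small change is favoured by the choice of loci with TF past the midpoint, here and at the returned raised loci.

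The 8 raised loci that returned had medians of 3.06 FPKM in TF of TNG67 and 4.92 in TF of IR64, against 0.509 and 1.84 in the embryos of TNG67 and IR64. At T1, T2 and TS the medians were 30.3, 15.7 and 3.11 FPKM in TNG67 and 76.7, 29.5 and 14.2 FPKM in IR64. Their levels were thus highest in newly induced callus, and in TNG67 TS was as low as TF by the median. LOC_Os03g55530 on chromosome 3 was listed at 0 at T0 and had 31.3 FPKM at T1, 12.2 at T2, 2.50 at TS and 2.99 at TF in TNG67. In IR64 it had 0.0711, 53.3, 8.70, 2.63 and 1.75 FPKM. LOC_Os06g40870 on chromosome 6 was listed at 0 at T0 and had 19.6, 15.4, 1.62 and 1.38 FPKM at T1, T2, TS and TF in TNG67, and 0.800, 74.0, 30.0, 15.0 and 3.01 FPKM from T0 to TF in IR64. At both loci the levels of TNG67 TF and TNG67 TS were within 1 FPKM of each other, and at LOC_Os03g55530 those of IR64 TF and IR64 TS were too. At that locus TS was also past the midpoint in both cultivars, with positions of 0.41 in TNG67 and 0.40 in IR64. At LOC_Os06g40870 the TS positions were 0.33 in TNG67 and 0.66 in IR64. The fitted log2 change of TF against T0 was 1.20 at LOC_Os06g40870 (SE 0.49, limma adjusted p = 0.14). It was 1.68 at LOC_Os03g55530 (SE 0.35, limma adjusted p = 0.026), a call lost without the cultivar term (0.057), without the filter (0.054), at a pseudocount of 5 (0.19), and without TNG67 T0 (0.060), TNG67 T2, TNG67 TS, IR64 T2 or IR64 TS (0.054 each), IR64 TF (0.060) or TNG67 TF (0.15).

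**Figure D4:**
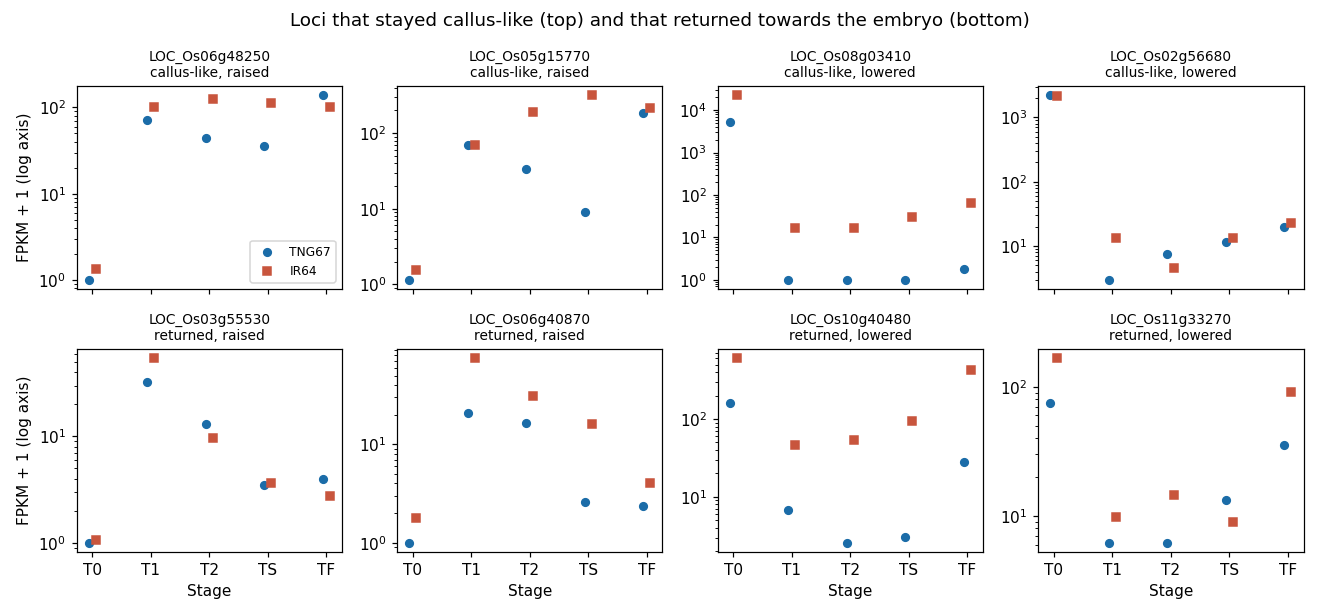
FPKM + 1 (log axis) by stage of 2 callus-like raised, 2 callus-like lowered, 2 returned raised and 2 returned lowered loci, 1 library per point, TNG67 as blue circles and IR64 as red squares. By the choice, TF in the upper row has a position of at least 0.75 between T0 (0) and the mean of T1 and T2 (1), on log2(FPKM + 1). In the lower row its position is at most 0.5, with LOC_Os10g40480 at 27.4 FPKM in TF of TNG67 and 422 in TF of IR64.

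Whether failed callus stood apart from the other calli in the same way in both cultivars was tested as TF against the mean of T1, T2 and TS, a contrast without T0. limma called 0 loci (0%), its lowest adjusted p being 0.188. An unadjusted p under 0.05 was found for 1914 loci, where p-values spread evenly would give 1146. Without the filter on low values it called 4. All 15 lowered and all 8 raised loci that returned had an unadjusted p under 0.05 in this contrast, but their choice used TF, T1 and T2, so this is no support. No other tool was run, and the return of single loci did not pass the adjusted threshold.

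Few loci moved in failed callus but not in callus grown on 2,4-D. At 2 loci TF was at least 4-fold above T0 in both cultivars while T1 and T2 stayed within 2-fold of it, and at 0 loci was it at least 4-fold below. TS was not limited by this choice. LOC_Os09g34920 on chromosome 9 had 6.95 FPKM in TF of TNG67 and 28.1 in TF of IR64, against 0.290 and 3.07 in the embryos of TNG67 and IR64, and 1.00 to 1.71 and 3.62 to 5.85 in their other calli, where TS was the highest of these in each cultivar. LOC_Os12g35340 on chromosome 12 had 3.95 FPKM in TF of TNG67 and 7.67 in TF of IR64 and was listed at 0 in both embryos, and its TS levels were 1.10 FPKM in TNG67 and 0.266 in IR64. On FPKM + 1, TNG67 TS was more than 2-fold above its embryo at both loci, so neither moved in failed callus alone in that cultivar. Both were named because they make up the whole group, after their values were seen. At a pseudocount of 0.1 there were 8 higher loci, and with 2-fold in place of 4-fold 68 higher and 25 lower. Loci listed at 0 at one end were also counted. At TF 10 loci were listed at 0 in both embryos and had at least 10 FPKM in both TF libraries, where T1 had 3 such loci, T2 1 and TS 3. The other way round, listed at 0 in both calli of a stage and at 10 FPKM or more in both embryos, there were 8 loci at T1, 5 at T2, 6 at TS and 4 at TF. Whole libraries also differed in their zeros. TNG67 TF had 413 tested loci at 0, against 686 to 794 in the other TNG67 calli. IR64 TF had 756, against 758 to 932 in the other IR64 calli. The TF libraries had the most loci at 1 FPKM or more, 19893 in TNG67 and 20116 in IR64. What part either had in the counts was not tested. A listed 0 can be a failed estimate.

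The most abundant transcripts of the embryo had a lower median level in failed callus than in the embryo, and a somewhat higher one than in the other calli. The loci were chosen by their T0 levels, which favours a lower level at every other stage. The 100 loci most abundant in both embryos, by the lower of the 2 embryo levels and without the locus at 3000000 FPKM, had medians of 1967 FPKM at T0, 259 at T1, 350 at T2, 419 at TS and 468 at TF in TNG67. In IR64 the medians were 1215, 224, 186, 324 and 396 FPKM in the same order. At least 4-fold below the embryo were 53 of these loci in TNG67 TF and 58 in TNG67 TS, and 43 in IR64 TF and 51 in IR64 TS. Their summed share of FPKM, which a few very abundant loci can set, did not follow the medians: in TNG67 it was 26.1% at T0, 26.5% at TS and 27.6% at TF, and in IR64 it was 26.9% at T0, 25.4% at TS and 19.2% at TF. The 100 loci most abundant in T1 and T2 of both cultivars, of which 26 were also in the embryo set, made up 19.2% of summed FPKM in IR64 TF and 12.003% in the IR64 embryo, with 23.5% to 25.6% in the other IR64 calli. In TNG67 they made up 29.1% in TF and 11.7% in the embryo, with 27.1% to 28.5% in the other calli. By this measure IR64 TF lay between the embryo and the other calli, and TNG67 TF did not. The choice of this set by T1 and T2 levels favours a high share at those stages.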

How the data were processed

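RNA was measured in 10 libraries, 1 per stage and cultivar. The labels give the TNG67 T1 RNA library the extraction protocol of the bisulfite libraries, and whether this is an error of the label is unknown. That library entered the choice of loci and the callus end of the TNG67 positions. Per the labels' protocols, the authors passed reads through FastQC, aligned them to Nipponbare IRGSP-1.0 by Bowtie (at most 2 mismatches, unique hits only) and used TopHat for the deposited FPKM per locus. Which versions, gene models and strand setting they used is not stated there. Unique hits leave out near-identical gene copies, and IR64 reads may align less well to this japonica reference. The 55166 rows were summed to 54170 loci (968 on several rows). Whole reads were not recovered, so depth is unknown and its precision cannot be given.

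Values were tested as log2(FPKM + 1) by limma 3.58.1 (R 4.3.3), the model holding stage and, as the block, cultivar. An intensity trend and Benjamini-Hochberg adjustment were used. The cultivar pairs TF with T0: deviations of TF and T0 from their stage means correlated at 0.55 within cultivars. Other steps ran in Python 3.11.15 (pandas 2.3.3, numpy 2.4.6, matplotlib 3.10.9).

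Members, lists and rules were chosen with earlier results of these data known. The 30 function lists could not be matched to identifiers and none was run. Named loci were the 2 each way with the largest fitted change (at least 4-fold in both cultivars, at least 10 FPKM) and, per position class and direction, the 2 with the largest shift in T1 and T2 in the cultivar where it was smaller. Sets of abundant loci, counts of extreme calli and the alternatives for loci changed in TF but not in T1 and T2 were added once values had been seen. Of the bisulfite libraries, 10 in all, none was analysed here.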

Additional observations from a re-analysis of the deposited data

Results flagged for a closer look

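The balance of loci at least 4-fold from the embryo ran in opposite directions in failed callus of the cultivars. Loci at least 4-fold higher minus loci at least 4-fold lower in TF came to -364 in TNG67 and 422 in IR64. In all other calli of both cultivars lower loci outnumbered higher ones, as in TNG67 TF. TNG67 had 1358 higher and 2110 lower at T1, 1206 and 1989 at T2, and 1054 and 1651 at TS. IR64 had 1574 and 1976 at T1, 1502 and 1830 at T2, and 1445 and 1669 at TS. The difference between the cultivars was not tested, since each has 1 library per stage, the TNG67 balance turned at a pseudocount of 0.1 and after quantile normalization, and the IR64 balance turned at a pseudocount of 5.

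At 19 loci (0.0829% of those tested) TF was at least 4-fold from T0 in opposite directions in the cultivars, with 7 higher in TNG67 TF and lower in IR64 TF and 12 the other way round. This was not tested either.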

How the results depend on the processing

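Alternatives changed 1 choice at a time. Leaving out 1 library each gave 127 to 2279 loci higher and 139 to 3493 lower in TF against T0, and 0 for TF against the other calli. No replicate block, that is no cultivar term, gave 276 higher and 642 lower; the 4 TF and T0 libraries alone gave 0 and 0. Without a filter 927 loci were higher, and 4 were called for TF against the other calli. A pseudocount of 5 gave 1036 higher loci. Counts past 4-fold became, at a pseudocount of 5, 381 higher and 1011 lower for TNG67 and 546 higher and 587 lower for IR64. At 0.1 they became 3062 higher and 2326 lower for TNG67, with 2836 higher and 1681 lower for IR64. In TNG67 quantile normalization gave 1250 and 1245. A mean of at least 5 FPKM left 966 higher in IR64. With 2-fold in place of 4-fold the counts were 4129 and 4711 in TNG67 and 4007 and 3765 in IR64, and with 8-fold 442 and 625, and 591 and 360. Loci changed in TF but not in T1 and T2 numbered 68 higher and 25 lower at 2-fold, 0 higher at 8-fold, 8 at a pseudocount of 0.1, 1 at 5 and at a mean of at least 5 FPKM, and 4 with median-ratio scaling. The cause of these shifts was not tested.

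Median positions of TF at raised loci moved in IR64 to 0.66 at a pseudocount of 5, 0.72 at 2-fold and 0.70 with loci chosen in the other cultivar, and in TNG67 to 1.12 with the last. The share past the midpoint in IR64 was 20.0% of lowered loci at a pseudocount of 0.1, 10.5% at 5, 10% at 8-fold and 23.2% with loci chosen in the other cultivar, and of raised loci 30.3% at a pseudocount of 5, 22.9% at 2-fold and 32.9% with loci chosen in the other cultivar. In TNG67 it was 3.00% of lowered loci at 8-fold, and 16.7% of lowered and 17.2% of raised loci chosen in the other cultivar. Callus-like loci made up 41.2% of lowered and 50.5% of raised loci at a pseudocount of 0.1, 53.3% of lowered loci at 5, 36.6% of raised loci at 2-fold, 51.7% and 50.4% with T2 alone as the callus end, and 61.7% and 57.9% with limits of 0.67 and 0.33. Returned loci made up 3.92% of lowered loci after quantile normalization, and 0.630% of lowered and 1.13% of raised loci at the stricter limits. Shared classes could not be given for loci chosen in 1 cultivar. Of the named loci, tested in TF against T0, none changed sign under these settings. All those called had an adjusted p of at least 0.0511 on the 4 libraries alone. Over the settings that could be fitted, the adjusted p ran from 0.015 to 0.19 at LOC_Os10g11500, 0.0013 to 0.078 at LOC_Os08g03410, 0.0092 to 0.11 at LOC_Os05g15770 and 0.0068 to 0.19 at LOC_Os03g55530. With sets of 50 or 200 abundant loci, sizes tried after seeing the data, the embryo set again had its highest callus median in TF, which for TNG67 was 855 FPKM over 50 loci and 355 over 200, and for IR64 586 and 278. The callus set again made up less of summed FPKM in IR64 TF (15.8% and 24.7%) than in the other IR64 calli.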
